A study of Mus musculus with 8 samples.

Results

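Immunoglobulin transcripts were followed in the pancreas of 4 related groups of young mice, through every probe set on the array whose annotation named an immunoglobulin gene. A probe set is a small group of short array sequences that report 1 transcript or a few related ones. A probe set was taken if its platform annotation held Jchain, or a symbol that starts with Igh, Igk or Igl and names an immunoglobulin locus, segment or constant gene. This gave 78 of the 12488 probe sets. Of the 78, 39 belonged to the heavy chain locus, 36 to the kappa light chain locus, 2 to the lambda light chain locus and 1 to the J chain. Both probe sets of Igll1, the lambda-like part of the surrogate light chain, were left out because Igll1 is none of these.

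Pancreas was taken at an age of 3 weeks from BDC2.5/NOD.scid, NOD.scid, BDC2.5/NOD and NOD mice, with 2 arrays for each group. All 4 groups share the NOD background, an inbred strain prone to autoimmune diabetes. BDC2.5 is a transgene that encodes the receptor of a helper T cell clone able to cause diabetes, and scid is a mutation of Prkdc, a kinase that serves the joining of antigen receptor segments. BDC2.5/NOD.scid mice carry both, NOD.scid mice carry scid alone, BDC2.5/NOD mice carry the transgene alone, and NOD mice carry neither. A scid mouse lacks mature B lymphocytes and T lymphocytes except those for which a joined receptor is supplied, and it keeps its macrophages, neutrophils and natural killer cells. The sources used here do not give the promoter of the transgene, the number of lines or the sex of the mice. Each RNA was a pool of isolations from 6 animals, and nothing says whether both arrays of a group had a pool of their own. The spread between them, which is all that the p-values measure, may be technical.

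An antibody is built from heavy chains and from kappa or lambda light chains. In a developing B cell, variable and joining segments of each locus, with diversity segments at the heavy chain locus, are cut and joined into 1 reading frame. The joined variable part is then transcribed together with a constant gene. Ighm encodes the constant part of IgM, the first class made. Ighd encodes that of IgD, Ighg3 that of an IgG class, and Igha that of IgA, the main antibody of mucosal secretions. Igkc and Iglc1 encode constant parts of the kappa and lambda light chains. Plasma cells secrete antibody in bulk and also make the J chain, a small protein that links IgM and IgA into polymers. The polymeric immunoglobulin receptor, Pigr, carries these polymers across epithelial cells into secretions.

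All values below are the deposited log2 signals, so that a difference of 1 is a factor of 2 on the linear scale. Signals of different probe sets do not compare the amounts of their transcripts. The data held no call of presence and no measure of background, so a low value does not show whether a transcript was there. Array medians lay between 4.24 and 4.30. Across all probe sets the arrays of a group correlated at r from 0.9912 to 0.9962, and arrays of different groups at 0.9774 to 0.9903. The control probes for the middle of the beta-actin transcript split the arrays into 5 at 6.95 to 7.74 and 3 at 9.26 to 9.55. The 3 were BDC2.5/NOD.scid replicate 2, NOD.scid replicate 1 and NOD replicate 1. Acinar genes such as those for amylase and elastase had values of 10.73 to 13.78 in every array of this labelled pancreas tissue. Prkdc lay between 3.37 and 3.70 in all 8 arrays, which checks no label, because the scid mutation does not remove the transcript.

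The group means of most immunoglobulin probe sets lay close together, as did those of most probe sets on the array. The members' signals ran from 2.17 to 7.36. The means of the 4 groups spanned a median of 0.20 for the 78, against 0.24 for all 12422 tested probe sets. Of the 78, 6 passed an adjusted p of 0.05 in at least 1 of 6 comparisons, by moderated limma tests adjusted over all 12422 probe sets, and 72 passed in none. That is 7.69% of the members, where 18.4% of all tested probe sets passed in at least 1 of the 6. The 72 spanned at most 0.43 between group means. The 6 were 3 kappa probe sets, 2 heavy chain probe sets and the J chain. Both probe sets for the kappa variable segment Igkv6-23 stood among them, with spans of 2.02 and 2.21. Without these 2, the largest span among the other 76 was 0.50.

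**Figure D1:**
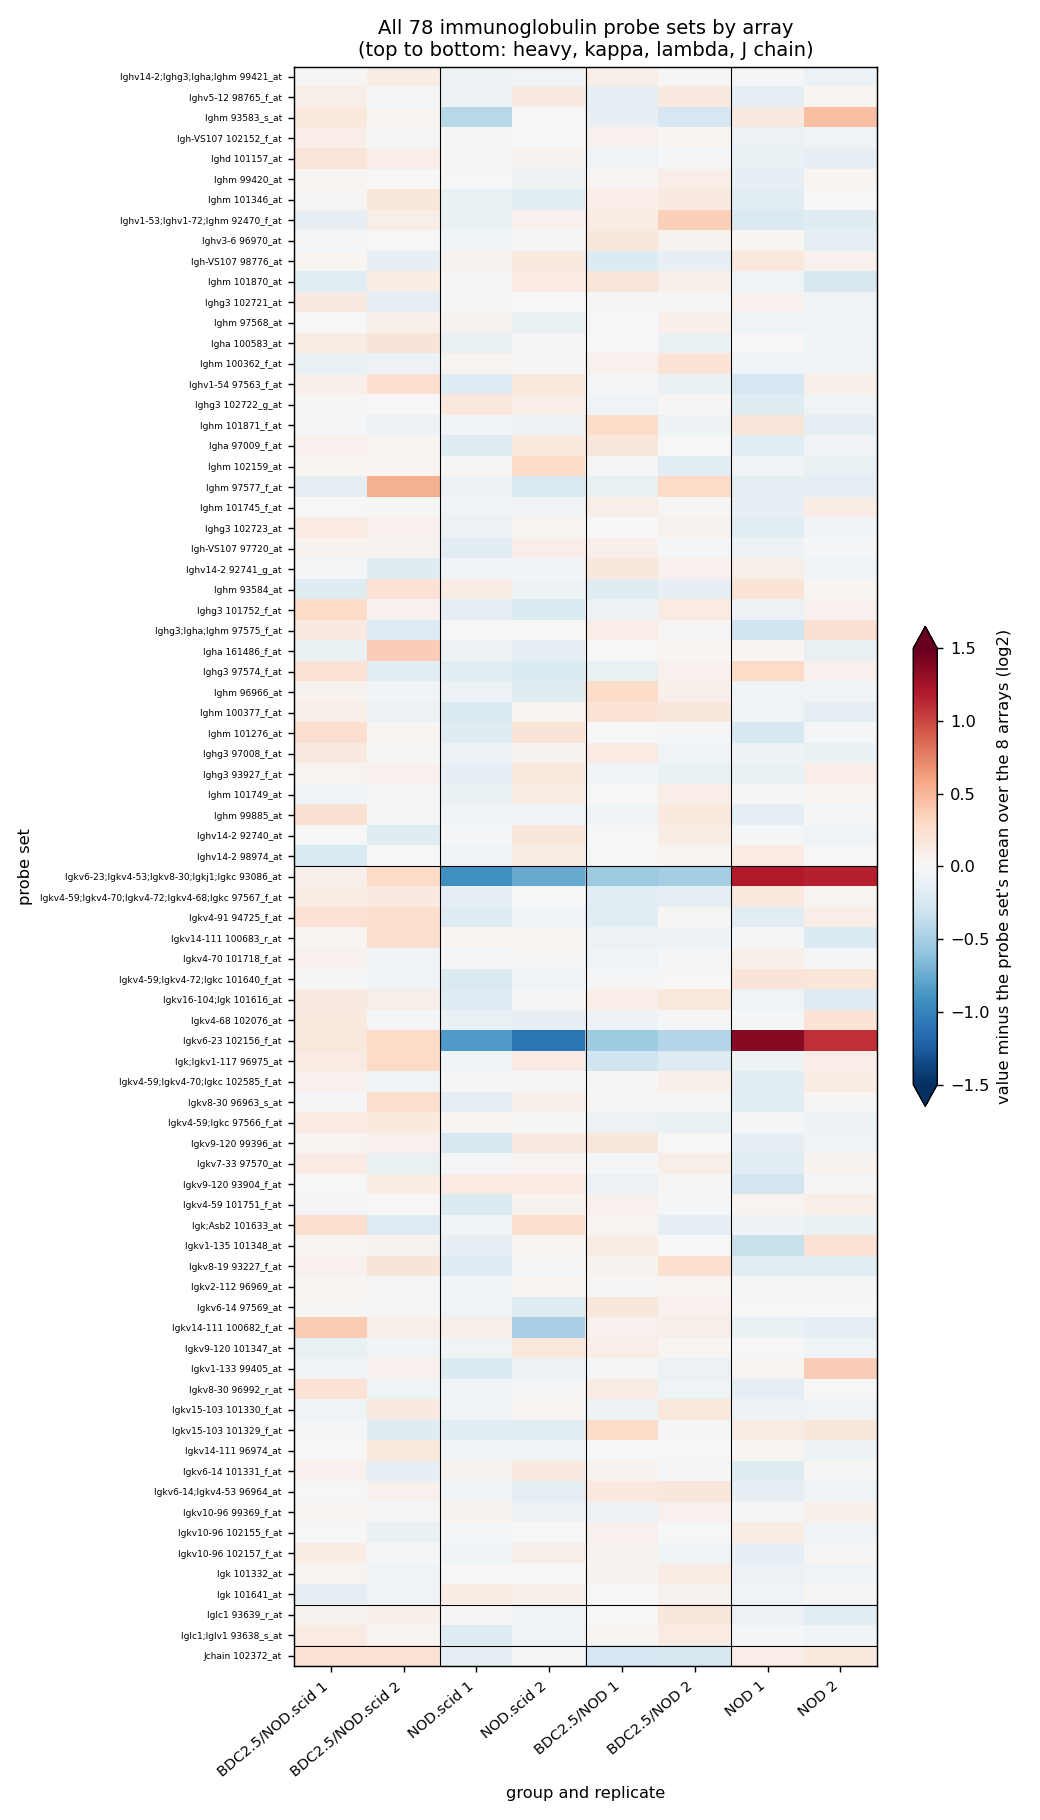
Each row is 1 of the 78 immunoglobulin probe sets and each column 1 array, and the colour gives the deposited log2 value minus that probe set's mean over the 8 arrays. Both Igkv6-23 probe sets, highest in NOD and lowest in NOD.scid, stand apart from the other 76, whose group means span at most 0.50.

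The kappa variable segment Igkv6-23 gave the large differences. The probe set annotated to Igkv6-23 alone, 102156_f_at, had 4.82 and 4.96 in BDC2.5/NOD.scid mice, 3.81 and 3.57 in NOD.scid mice, 4.13 and 4.22 in BDC2.5/NOD mice and 6.03 and 5.76 in NOD mice. The second probe set, 93086_at, is annotated to Igkv6-23, Igkv4-53, Igkv8-30, the joining segment Igkj1 and the constant gene Igkc. It had 6.24 and 6.47 in BDC2.5/NOD.scid mice, 5.25 and 5.41 in NOD.scid mice, 5.62 and 5.66 in BDC2.5/NOD mice and 7.36 and 7.34 in NOD mice. In both probe sets the arrays of the 4 groups did not overlap. In both the groups fell in the same order, with NOD highest, then BDC2.5/NOD.scid, then BDC2.5/NOD, and NOD.scid lowest. As whole pancreas was measured, fewer cells of a type and less RNA per cell cannot be told apart in these values. The suffix of 102156_f_at marks sequences shared within a gene family, so that its signal may include related kappa segments.

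Without the transgene, the scid mutation went with a low Igkv6-23 signal. Probe set 102156_f_at averaged 3.69 ± 0.17 in NOD.scid and 5.90 ± 0.19 in NOD (SD, n = 2 each). It was 4.62-fold lower in NOD.scid, a log2 difference of -2.21 (SE 0.122, limma adjusted p = 8.41e-07). Probe set 93086_at averaged 5.33 ± 0.11 in NOD.scid, against 7.35 ± 0.0099 in NOD, which is 4.06-fold lower in NOD.scid (limma adjusted p = 4.08e-07). These 2 were the only members that passed in this comparison, both lower, against 2.35% of all tested probe sets called in either direction and 1.61% lower.

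The transgene went with opposite differences on the 2 backgrounds. Within NOD.scid, Igkv6-23 was higher with the transgene. Probe set 102156_f_at averaged 4.89 ± 0.098 in BDC2.5/NOD.scid and 3.69 ± 0.17 in NOD.scid, 2.29-fold higher (SE 0.122 on the log2 scale, limma adjusted p = 5.64e-05). Probe set 93086_at averaged 6.35 ± 0.16 in BDC2.5/NOD.scid and 5.33 ± 0.11 in NOD.scid, 2.03-fold higher (limma adjusted p = 4.67e-05). No other member passed in this comparison, where 6.40% of all tested probe sets were called, 2.37% higher. Within NOD, Igkv6-23 was lower with the transgene: 102156_f_at averaged 4.18 ± 0.069 in BDC2.5/NOD and 5.90 ± 0.19 in NOD, 3.30-fold lower (limma adjusted p = 4.07e-06). Probe set 93086_at averaged 5.64 ± 0.028 in BDC2.5/NOD and 7.35 ± 0.0099 in NOD, 3.29-fold lower (limma adjusted p = 7.84e-07). The transgene effect in NOD.scid minus that in NOD was 2.92 for 102156_f_at (SE 0.172, limma adjusted p = 8.91e-07) and 2.74 for 93086_at (SE 0.143, adjusted p = 3.87e-07). This test of the difference passed for 4 members, all positive, against 4.72% of all tested probe sets called in either direction and 2.22% positive.

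The groups that carry BDC2.5 also differed from each other. Igkv6-23 was 1.64-fold higher in BDC2.5/NOD.scid than BDC2.5/NOD in both probe sets, with log2 differences of 0.71 for 102156_f_at (limma adjusted p = 0.00329) and 0.72 for 93086_at (adjusted p = 0.000836). With BDC2.5/NOD replicate 1 left out, the adjusted p of 102156_f_at was 0.0549, which misses the threshold. BDC2.5/NOD.scid minus NOD was -1.01 in 102156_f_at, 2.01-fold lower (limma adjusted p = 0.000304), and -1.0 in 93086_at, 2.0-fold lower (adjusted p = 6.5e-05). The 2 lowest groups were the hardest to tell apart. BDC2.5/NOD minus NOD.scid was 0.49 for 102156_f_at (limma adjusted p = 0.0276) and 0.30 for 93086_at (adjusted p = 0.09). The first of these calls was lost when BDC2.5/NOD replicate 1, BDC2.5/NOD replicate 2 or NOD.scid replicate 2 was left out, with adjusted p of 0.117 to 0.215. Of the members, 1 passed in this added comparison, where 8.67% of all tested probe sets were called, 4.75% higher.

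**Figure D2:**
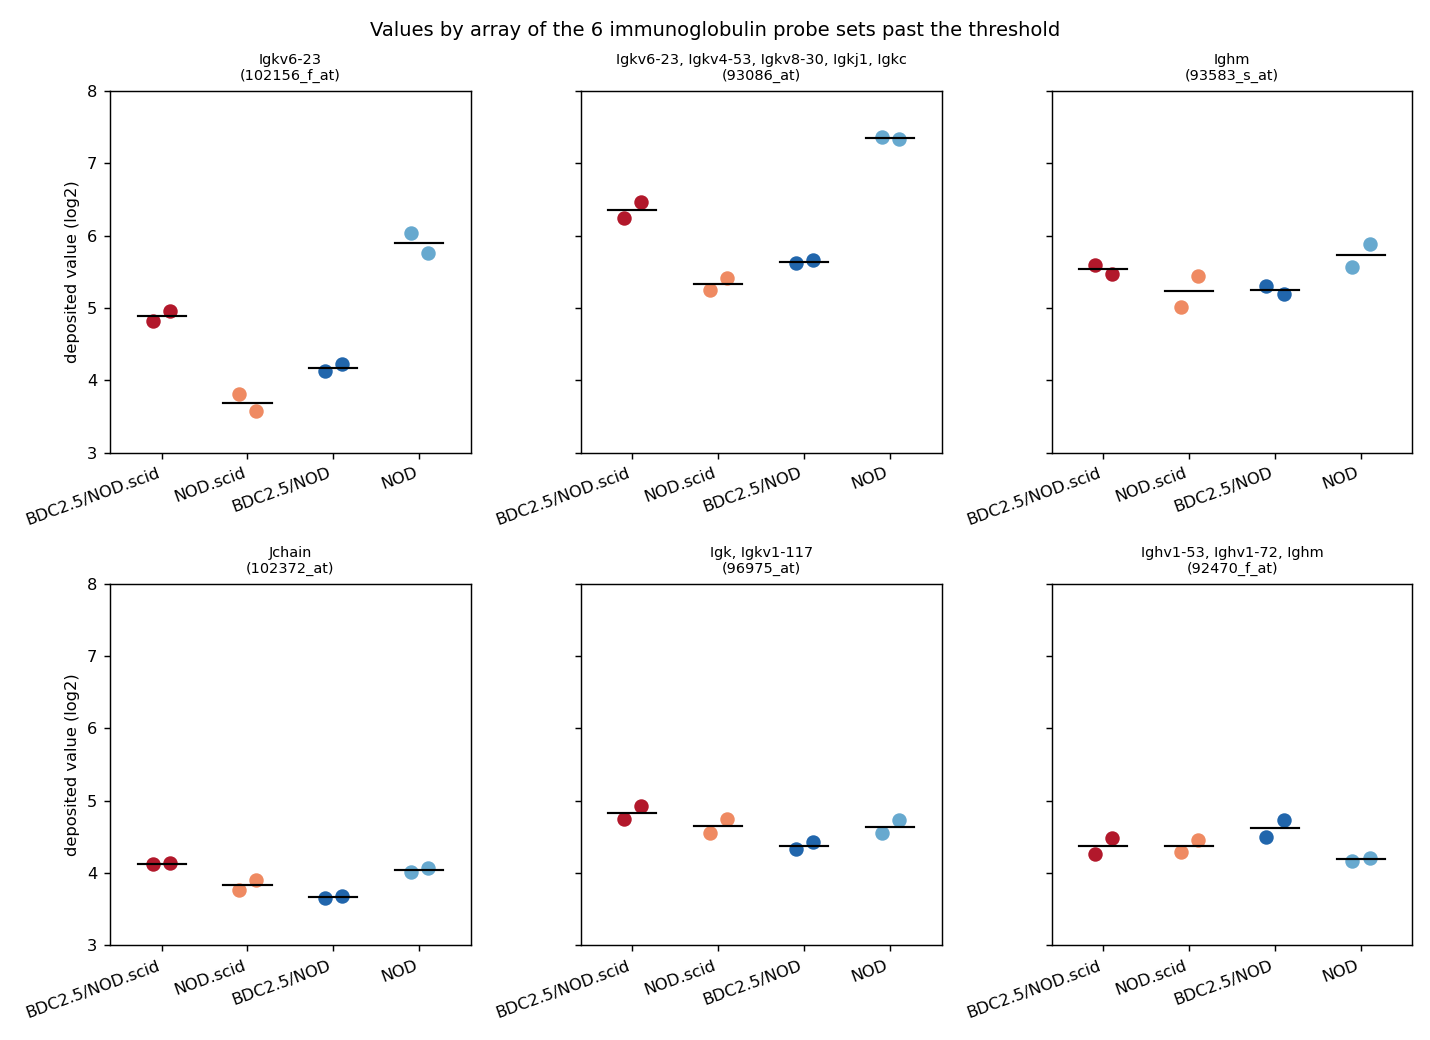
Deposited log2 values (vertical axis) of the 6 immunoglobulin probe sets past the threshold in at least 1 comparison, with 1 point per array, a line at each group's mean, and the groups from left to right BDC2.5/NOD.scid, NOD.scid, BDC2.5/NOD and NOD. The Igkv6-23 values run from 3.57 to 6.03 and from 5.25 to 7.36 without overlap between groups, while the other 4 probe sets move by at most 0.50 between group means.

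The actin control split 3 of the 4 groups, all but BDC2.5/NOD, and the Igkv6-23 differences were read on each side of it. Among the 5 arrays of low control, BDC2.5/NOD.scid minus NOD.scid was 1.25 for 102156_f_at and 0.83 for 93086_at. Among the 3 arrays of high control it was 1.14 and 1.21 for the same probe sets. NOD.scid minus NOD was -2.19 and -1.94 at low control, and -2.22 and -2.11 at high control. Each direction was thus the same on both sides of the split. Both BDC2.5/NOD arrays had a low control, so BDC2.5/NOD minus NOD could be read only there, at -1.59 for 102156_f_at and -1.71 for 93086_at. Each value within a side rests on 1 array per group outside BDC2.5/NOD and has no test.

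No other kappa probe set had differences of the size seen for Igkv6-23, including those that share symbols with 93086_at. The order of the 4 group means was the same as for Igkv6-23 in 3 of the other 34 kappa probe sets, none of which passed in any comparison. They were 99405_at for Igkv1-133, 102076_at for Igkv4-68 and 99369_f_at for Igkv10-96, whose group means differed by at most 0.05. Igkv1-133 averaged 3.54 in BDC2.5/NOD.scid mice, 3.38 in NOD.scid mice, 3.48 in BDC2.5/NOD mice and 3.73 in NOD mice, and NOD.scid minus NOD was -0.34 (limma adjusted p = 0.203). Igkv4-68 averaged 4.77 in BDC2.5/NOD.scid mice, 4.59 in NOD.scid mice, 4.66 in BDC2.5/NOD mice and 4.80 in NOD mice, and NOD.scid minus NOD was -0.20 (limma adjusted p = 0.42). Over all members apart from Igkv6-23 the order occurred in 5 of 76 (6.58%), against 1.83% of all tested probe sets. The other 2 were the heavy chain probe sets 93583_s_at and 97574_f_at, described below. Igkv4-53 is also on 96964_at, beside Igkv6-14, which ran from 2.95 to 3.26 over the 8 arrays. Igkv8-30 is also on 96963_s_at at 4.34 to 4.78 and on 96992_r_at at 3.14 to 3.5. None of these 3 passed in any comparison. The constant gene Igkc is shared by 5 probe sets, each of which also holds variable segments. Apart from 93086_at, they are 97567_f_at, 101640_f_at, 97566_f_at and 102585_f_at, all with segments of the Igkv4 family. The one with the highest signal of the 4, 97567_f_at, had 6.22 and 6.24 in BDC2.5/NOD.scid mice, 5.97 and 6.10 in NOD.scid mice, 5.93 and 5.97 in BDC2.5/NOD mice and 6.26 and 6.14 in NOD mice. BDC2.5/NOD.scid and NOD were the high groups here too, but no difference passed, and the difference between the transgene effects was 0.45 (limma adjusted p = 0.0775). Probe set 101640_f_at had 5.0 and 4.97 in BDC2.5/NOD.scid mice, 4.82 and 4.99 in NOD.scid mice, 5.01 and 5.03 in BDC2.5/NOD mice and 5.23 and 5.21 in NOD mice. NOD lay above the other 3 groups in it without overlap, with differences that did not pass (limma adjusted p = 0.223 for BDC2.5/NOD minus NOD and 0.127 for NOD.scid minus NOD). The remaining Igkc probe sets, 97566_f_at at 4.27 to 4.51 and 102585_f_at at 4.43 to 4.70, had group means within 0.23 and 0.07.

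A further kappa probe set passed in a single comparison. Probe set 96975_at, annotated to the kappa locus and Igkv1-117, had 4.75 and 4.92 in BDC2.5/NOD.scid mice, 4.56 and 4.75 in NOD.scid mice, 4.33 and 4.43 in BDC2.5/NOD mice and 4.55 and 4.73 in NOD mice. BDC2.5/NOD was the low group, and BDC2.5/NOD.scid lay above it without overlap by 0.45 (SE 0.113, limma adjusted p = 0.028). The call was lost with BDC2.5/NOD.scid replicate 2, BDC2.5/NOD replicate 1 or BDC2.5/NOD replicate 2 left out (adjusted p of 0.116 to 0.224). Over BDC2.5/NOD.scid minus BDC2.5/NOD, 4 members passed, all higher, against 8.35% of all tested probe sets called in either direction and 2.99% higher.

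Among kappa segments that did not pass, Igkv14-111 and Igkv4-91 had the widest group means. Igkv14-111 on 100682_f_at had 3.99 and 3.70 in BDC2.5/NOD.scid mice, 3.70 and 3.13 in NOD.scid mice, 3.68 and 3.70 in BDC2.5/NOD mice and 3.51 and 3.48 in NOD mice. The NOD.scid arrays were far apart, and BDC2.5/NOD.scid minus NOD.scid was 0.43 (limma adjusted p = 0.169). The other probe sets of this segment, 100683_r_at and 96974_at, had group means within 0.25 and 0.12. Igkv4-91 on 94725_f_at had 5.55 and 5.58 in BDC2.5/NOD.scid mice, 5.14 and 5.29 in NOD.scid mice, 5.16 and 5.35 in BDC2.5/NOD mice and 5.17 and 5.43 in NOD mice. BDC2.5/NOD.scid was above the other 3 groups without overlap, by 0.36 over NOD.scid (limma adjusted p = 0.0946).

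The heavy chain locus gave small differences. Ighm, the constant gene of IgM, is the only symbol of 16 probe sets and stands among several on 3 more. Of these 19, 2 passed in 1 comparison each, where 18.4% of all tested probe sets passed in at least 1 of the 6. Probe set 93583_s_at, annotated to Ighm alone, had 5.60 and 5.47 in BDC2.5/NOD.scid mice, 5.02 and 5.44 in NOD.scid mice, 5.31 and 5.19 in BDC2.5/NOD mice and 5.57 and 5.89 in NOD mice. Both BDC2.5/NOD.scid arrays lay above both NOD.scid arrays, and both BDC2.5/NOD arrays lay below both NOD arrays. None of the pairwise differences passed: BDC2.5/NOD.scid minus NOD.scid was 0.30 (SE 0.143, limma adjusted p = 0.299), BDC2.5/NOD minus NOD was -0.48 (adjusted p = 0.0625) and NOD.scid minus NOD was -0.50 (adjusted p = 0.111). The difference between the 2 transgene effects was 0.78 (SE 0.202, limma adjusted p = 0.0472). That call was lost with 6 of the 8 arrays left out in turn (adjusted p of 0.0751 to 0.207), all but NOD.scid replicate 2 and NOD replicate 1.

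Probe set 92470_f_at, annotated to Ighv1-53, Ighv1-72 and Ighm, went the other way. It had 4.26 and 4.48 in BDC2.5/NOD.scid mice, 4.29 and 4.45 in NOD.scid mice, 4.50 and 4.74 in BDC2.5/NOD mice and 4.17 and 4.21 in NOD mice. BDC2.5/NOD was the high group, above NOD by 0.43 (SE 0.118, limma adjusted p = 0.045), a call lost with any of the 4 arrays of these groups left out (adjusted p of 0.0829 to 0.33). It was also lost under quantile normalization and under centring of the array medians. This was the only member called higher in BDC2.5/NOD than NOD, and 3 members were lower. In that comparison 7.97% of all tested probe sets were called, 3.91% higher and 4.06% lower.

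The other 15 probe sets of Ighm alone passed in no comparison. Those with a mean signal above 4.27, the median of all probe sets, were 99420_at at 4.51 to 4.74 and 101346_at at 4.40 to 4.73. The heavy chain member of highest signal, 99421_at, holds Ighv14-2, Ighg3, Igha and Ighm, and had 6.24 and 6.33 in BDC2.5/NOD.scid mice, 6.14 and 6.17 in NOD.scid mice, 6.31 and 6.24 in BDC2.5/NOD mice and 6.20 and 6.13 in NOD mice. Its group means spanned 0.13, so the signal hardly moved where that of Igkv6-23 moved by over 2. The remaining Ighm probe sets lay between 2.37, on 99885_at, and 4.39, on 101870_at. The widest of them, 97577_f_at, spanned 0.36 between group means, with 3.87 in BDC2.5/NOD.scid replicate 2 against 3.20 in replicate 1 of the same group.

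The constant genes Igha, Ighg3 and Ighd passed nowhere. Igha, for IgA, is the only symbol of 3 probe sets with values of 2.76 to 4.13. The one of highest signal, 100583_at, had 4.05 and 4.13 in BDC2.5/NOD.scid mice, 3.83 and 3.91 in NOD.scid mice, 3.95 and 3.84 in BDC2.5/NOD mice and 3.93 and 3.88 in NOD mice. BDC2.5/NOD.scid was high without overlap, by 0.22 over NOD.scid, and the difference did not pass (limma adjusted p = 0.278). Probe sets 161486_f_at at 2.76 to 3.27 and 97009_f_at at 3.15 to 3.51 had group means within 0.24 and 0.20. Ighg3 is the only symbol of 7 probe sets with values of 2.54 to 4.33. On 97574_f_at, whose group means had the widest span of the 7 at 0.36, Ighg3 had 3.11 and 2.73 in BDC2.5/NOD.scid mice, 2.73 and 2.68 in NOD.scid mice, 2.78 and 2.95 in BDC2.5/NOD mice and 3.17 and 2.95 in NOD mice. NOD.scid minus NOD was -0.36 there (limma adjusted p = 0.216). On 101752_f_at it had 3.23 and 3.01 in BDC2.5/NOD.scid and 2.80 and 2.74 in NOD.scid, 0.35 apart (limma adjusted p = 0.0959). Ighd, for IgD, has 1 probe set, 101157_at, with 5.41 and 5.33 in BDC2.5/NOD.scid mice, 5.22 and 5.29 in NOD.scid mice, 5.18 and 5.20 in BDC2.5/NOD mice and 5.13 and 5.11 in NOD mice. BDC2.5/NOD.scid lay above NOD by 0.25, which did not pass (limma adjusted p = 0.13).

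Heavy chain variable segments passed in no comparison apart from those that share 92470_f_at with Ighm. Ighv5-12 on 98765_f_at had 5.73 and 5.61 in BDC2.5/NOD.scid mice, 5.57 and 5.78 in NOD.scid mice, 5.51 and 5.78 in BDC2.5/NOD mice and 5.50 and 5.68 in NOD mice, with overlap between all groups. Igh-VS107 on 102152_f_at had 5.52 and 5.40 in BDC2.5/NOD.scid mice, 5.39 and 5.42 in NOD.scid mice, 5.48 and 5.45 in BDC2.5/NOD mice and 5.33 and 5.37 in NOD mice. The 4 probe sets that hold Ighv14-2 and the 3 of Igh-VS107 spanned at most 0.21 and 0.27 between group means. The lambda light chain was no different: Iglc1 on 93639_r_at lay at 4.41 to 4.75, and 93638_s_at, which holds Iglc1 and Iglv1, at 2.57 to 2.88. Neither passed in any comparison.

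The J chain followed the order of Igkv6-23 in part. Jchain on 102372_at had 4.12 and 4.14 in BDC2.5/NOD.scid mice, 3.77 and 3.90 in NOD.scid mice, 3.65 and 3.68 in BDC2.5/NOD mice and 4.02 and 4.07 in NOD mice. No 2 groups overlapped, with BDC2.5/NOD.scid highest and BDC2.5/NOD lowest, whereas NOD was highest and NOD.scid lowest for Igkv6-23. Jchain averaged 3.67 ± 0.023 in BDC2.5/NOD and 4.04 ± 0.037 in NOD (SD, n = 2 each), 1.30-fold lower in BDC2.5/NOD (SE 0.097 on the log2 scale, limma adjusted p = 0.0344). It averaged 4.13 ± 0.0092 in BDC2.5/NOD.scid, 1.38-fold higher than BDC2.5/NOD (limma adjusted p = 0.0108). BDC2.5/NOD.scid minus NOD.scid was 0.30 (limma adjusted p = 0.108), NOD.scid minus NOD was -0.21 (adjusted p = 0.357) and BDC2.5/NOD.scid minus NOD was 0.09 (adjusted p = 0.658), none of which passed. The difference between the 2 transgene effects was 0.67 (SE 0.137, limma adjusted p = 0.0152). The 3 calls were each lost with some arrays left out. The first was lost without either array of BDC2.5/NOD or of NOD (adjusted p of 0.107 to 0.222). The second did not hold without either BDC2.5/NOD array or without BDC2.5/NOD.scid replicate 2 (0.0592 to 0.105). The third was lost without NOD replicate 2 or either BDC2.5/NOD array (0.0502 to 0.09).

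Jchain was also the only one of the 37 immunoglobulin symbols whose promoter was in the RefSeq table used here. The window runs from 250 bases before to 50 bases after the start of the gene, on the minus strand at chr5:88527848-88528147 of GRCm38.p6. It is shown because immunoglobulin promoters are known for an octamer, ATGCAAAT, which was searched on both strands as ATGCAAAT and ATTTGCAT.

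Jchain promoter: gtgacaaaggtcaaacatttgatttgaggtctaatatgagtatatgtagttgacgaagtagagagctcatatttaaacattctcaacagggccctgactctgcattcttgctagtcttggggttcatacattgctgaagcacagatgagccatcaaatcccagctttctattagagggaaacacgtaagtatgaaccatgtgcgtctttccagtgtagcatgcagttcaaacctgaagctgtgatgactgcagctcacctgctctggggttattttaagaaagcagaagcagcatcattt

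Neither form of the octamer is in these 300 bases, so no letters are in capitals. Of the 32851 promoters in the table, 570 hold it, which is 1.74%. The absence says only that these letters are not in this window.

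Read over all 78 members, BDC2.5/NOD.scid lay above NOD.scid and above NOD more often than over all tested probe sets, by small amounts. So did BDC2.5/NOD above NOD.scid in the added comparison. The other comparisons were closer to the background. In BDC2.5/NOD.scid minus NOD.scid, the median log2 difference of the members was 0.082, against -0.004 over all tested probe sets, beside a median SE per member of 0.106. Both arrays of BDC2.5/NOD.scid lay above both of NOD.scid in 29 of the 78 (37.2%), where the share over all tested probe sets was 20.5%, and below them in 5 (6.41%, against 22.2%). The median over the members in each array was 3.83 and 3.82 in BDC2.5/NOD.scid mice, 3.68 and 3.66 in NOD.scid mice, 3.76 and 3.72 in BDC2.5/NOD mice and 3.63 and 3.81 in NOD mice. The 2 NOD arrays thus lay on both sides of the other groups apart from BDC2.5/NOD.scid. In BDC2.5/NOD minus NOD, the members' median was 0.076 against 0.034 over all, with 28 above without overlap (35.9%, against 33.5%) and 14 below (17.9%, against 22.8%).

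For scid without the transgene, NOD.scid minus NOD, the members' median was 0.014 against 0.028, with 16 above without overlap (20.5%, against 24.8%) and 14 below (17.9%, against 17.5%). For BDC2.5/NOD.scid minus BDC2.5/NOD it was 0.010 against -0.014, with 17 above (21.8%, against 22.9%) and 18 below (23.1%, against 28.9%). For BDC2.5/NOD.scid minus NOD, 2 members passed, both lower and both of Igkv6-23, where 7.58% of all tested probe sets were called, 5.07% lower. The members' median there was 0.090 against 0.021, with 28 above without overlap (35.9%, against 28%) and 10 below (12.8%, against 22.6%). For the added BDC2.5/NOD minus NOD.scid it was 0.060 against 0.008, with 29 above (37.2%, against 29.2%) and 15 below (19.2%, against 24.8%). At an unadjusted p under 0.05, limma called 7 members in BDC2.5/NOD.scid minus NOD.scid, against 17.4% of all tested probe sets, and 15 in BDC2.5/NOD minus NOD, against 23.6%. It called 9 in NOD.scid minus NOD (14.2% of all), 8 in BDC2.5/NOD.scid minus BDC2.5/NOD (20.8%), 8 in BDC2.5/NOD.scid minus NOD (22.0%) and 11 for the difference between the transgene effects (16.8%). These counts were below the share over all tested probe sets in each case.

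**Figure D3:**
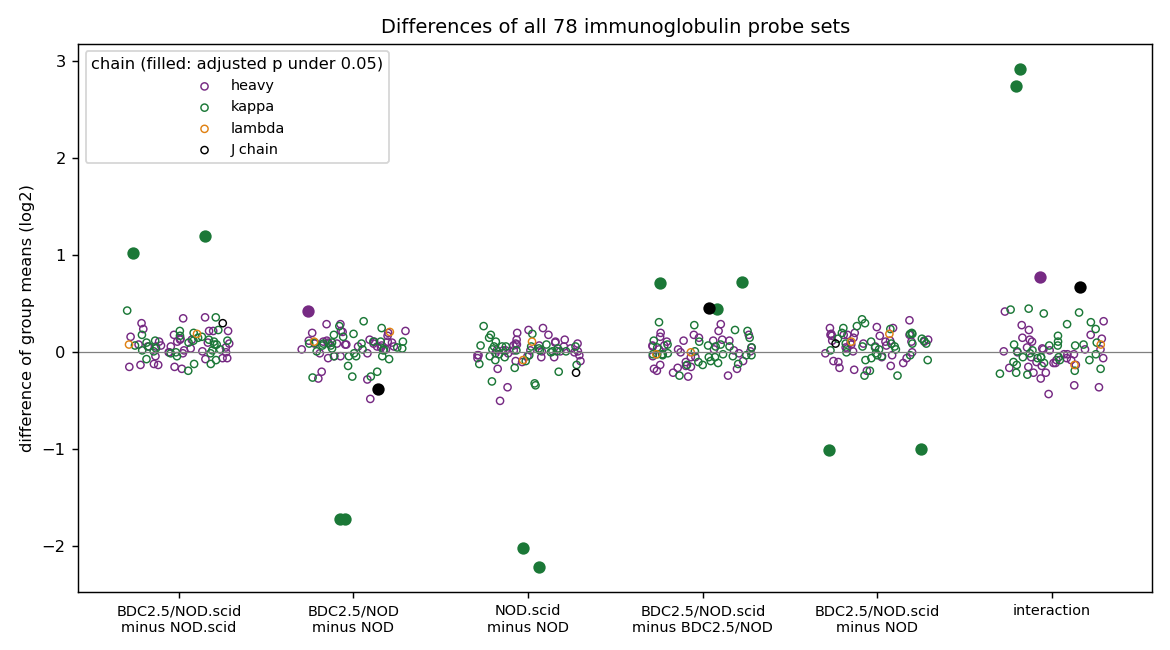
Log2 differences of the 78 immunoglobulin probe sets, 1 point each, for the 6 comparisons, with points past an adjusted p of 0.05 filled and the colour giving the chain. Apart from the Igkv6-23 pair, which lies between -2.21 and 2.92, the largest differences are 0.78 for Ighm on 93583_s_at and 0.67 for Jchain, both in the interaction.

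Few B cell probe sets passed in any comparison, at shares not far above or below the background. Of 31 listed B cell genes, 25 were measured on 36 probe sets. The summed log2 level of the list was 150.7 to 152.1 in BDC2.5/NOD.scid mice, 149.6 to 151.0 in NOD.scid mice, 150.1 to 151.2 in BDC2.5/NOD mice and 148.4 to 151.9 in NOD mice, so all groups overlapped. In BDC2.5/NOD.scid minus NOD.scid 3 of the 36 probe sets passed (8.33%, against 6.40% of all tested), and in BDC2.5/NOD.scid minus BDC2.5/NOD 4 did (11.1%, against 8.35%). In BDC2.5/NOD minus NOD 1 passed (2.78%, against 7.97%). In BDC2.5/NOD.scid minus NOD 8.33% passed, against 7.58%. On 36 probe sets a few calls make these gaps, so they are no result about B cell genes. Cd79a, a signalling chain of the B cell receptor, had 5.21 and 5.37 in BDC2.5/NOD.scid mice, 5.35 and 5.55 in NOD.scid mice, 5.48 and 5.60 in BDC2.5/NOD mice and 5.40 and 5.48 in NOD mice. Ms4a1, which encodes the surface protein CD20, had 5.70 and 5.62 in BDC2.5/NOD.scid mice, 5.62 and 5.82 in NOD.scid mice, 5.53 and 5.57 in BDC2.5/NOD mice and 5.69 and 5.72 in NOD mice on 104173_at. Neither gene passed in any comparison, nor did Cd79b at 3.28 to 3.60, Cd22 or Pax5. None of these defining B cell genes was called lower in NOD.scid than NOD, where 1.61% of all tested probe sets were. With so few called, this does not show that their levels were equal.

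The B cell genes that passed were Cd52, the H2-DMb genes, Cd24a and Cxcr5. In BDC2.5/NOD.scid minus NOD.scid, 2 of the 36 probe sets were higher and 1 lower. Cd52, a surface protein of many leukocytes, had 5.78 and 5.72 in BDC2.5/NOD.scid mice, 5.10 and 4.86 in NOD.scid mice, 4.82 and 4.83 in BDC2.5/NOD mice and 5.27 and 5.09 in NOD mice. It was higher in BDC2.5/NOD.scid than NOD.scid by 0.77 (limma adjusted p = 0.000795), and the difference between the transgene effects was 1.13 (adjusted p = 0.000994). The second was 98034_at, shared by H2-DMb2 and H2-DMb1, which help load peptides on MHC class II, higher by 0.51 (adjusted p = 0.026). The third was Cd24a, a surface protein found on many cell types, lower by 0.43 (log2 -0.43, adjusted p = 0.0187). In NOD.scid minus NOD, 0 of the 36 passed with limma, where only 2.35% of all tested probe sets were called. An unadjusted p under 0.05 was reached by 1 of the 36, against 14.2% of all tested. In BDC2.5/NOD minus NOD, Cxcr5, a chemokine receptor of follicular lymphocytes, was the only one, higher by 0.40 (adjusted p = 0.0238). The calls on 98034_at and Cd24a were each lost with any of 3 arrays left out, as was that on Cxcr5 (adjusted p of up to 0.165).

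Plasma cell genes were highest in BDC2.5/NOD as a list. Of 12 plasma cell genes, 8 were measured on 11 probe sets, which summed to 55.1 to 56.7 in BDC2.5/NOD.scid mice, 53.8 to 54.2 in NOD.scid mice, 59.7 to 60.1 in BDC2.5/NOD mice and 55.5 to 55.9 in NOD mice. In BDC2.5/NOD.scid minus BDC2.5/NOD, 4 of the 11 passed, all lower (36.4%, against 8.35% of all tested probe sets in either direction). In BDC2.5/NOD minus NOD 2 passed, both higher (18.2%, against 7.97%), and in the added BDC2.5/NOD minus NOD.scid 5 passed, all higher (45.5%, against 8.67%). The list's median log2 difference in these 3 comparisons was -0.082, 0.227 and 0.288. Sdc1, Prdm1, Xbp1, Irf4 and Tnfrsf17, which mark or drive the plasma cell state, passed in no comparison. The plasma cell genes that passed were Creld2, Fkbp11 and Ell2, and the first 2 are chaperone-related genes of the secretory pathway that pancreatic cells also use. The 5 calls of the added comparison were Creld2, Fkbp11 and Ell2 on 103891_i_at, 103892_r_at and 97704_at. Fkbp11 was higher in BDC2.5/NOD than NOD by 0.38 (limma adjusted p = 0.0435), a call lost with any of the 4 arrays of these groups left out. Creld2 had 5.81 and 5.75 in BDC2.5/NOD.scid mice, 5.31 and 5.14 in NOD.scid mice, 7.58 and 7.68 in BDC2.5/NOD mice and 5.44 and 5.66 in NOD mice. BDC2.5/NOD was far above the other groups, by 2.08 over NOD (limma adjusted p = 1.42e-07), whereas Igkv6-23 was lower there. Ell2, an elongation factor of transcription, was lower in NOD.scid than NOD on 103891_i_at by 0.64 (log2 -0.64, limma adjusted p = 0.0379). This call was lost with any of 5 arrays left out. Ell2 was also lower in BDC2.5/NOD.scid than BDC2.5/NOD on 103891_i_at and 103892_r_at, by 0.73 and 0.70 (log2 -0.73 and -0.70, limma adjusted p = 0.00833 and 0.0157). The last 2 calls failed to hold when replicate 2 of BDC2.5/NOD.scid or of BDC2.5/NOD was left out. That on 103892_r_at was also lost when BDC2.5/NOD replicate 1 was. Of 10 precursor genes, 9 were measured on 17 probe sets, and the only gene to pass was Sox4, a transcription factor of many tissues. Its 2 probe sets were 11.8% of the list in BDC2.5/NOD.scid minus NOD.scid (against 6.40% of all tested) and in BDC2.5/NOD minus NOD (7.97%). They also passed in BDC2.5/NOD.scid minus BDC2.5/NOD, both higher (11.8%, against 8.35%). On 160109_at Sox4 was lower in BDC2.5/NOD.scid than NOD.scid by 0.49 (log2 -0.49, limma adjusted p = 0.017) and lower in BDC2.5/NOD than NOD by 0.62 (log2 -0.62, adjusted p = 0.00414). The first call was lost without replicate 1 of BDC2.5/NOD.scid or of NOD.scid (0.119 and 0.127), and the second without either BDC2.5/NOD array (0.0506 and 0.0616). Rag1, Vpreb1, Dntt and Igll1, which serve the joining of segments and the early B cell receptor, passed nowhere. Among 11 probe sets for segment joining and class switching, 2 passed in the added BDC2.5/NOD minus NOD.scid, both lower (18.2%, against 8.67%). One of them was 93095_at, shared by Gm21596 and Hmgb1, lower by 0.54 (log2 -0.54, limma adjusted p = 0.0238), a call lost with any of 3 arrays left out. In the 6 planned comparisons 93095_at was the only one to pass. It was 9.09% of the list in each of the comparisons below, against 6.40% to 7.97% of all tested. It was lower in BDC2.5/NOD.scid than NOD.scid by 0.52 (log2 -0.52, limma adjusted p = 0.0367). That call was lost with any of 4 arrays left out (0.0737 to 0.281), under a replicate block and under array weights. The same probe set was lower in BDC2.5/NOD than NOD by 0.64 (log2 -0.64, limma adjusted p = 0.011), a call lost with any of 3 arrays left out (0.0747 to 0.119). It was lower in BDC2.5/NOD.scid than NOD by 0.62 (log2 -0.62, adjusted p = 0.0148), lost with either of 2 arrays left out (0.113 and 0.136).

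Pigr, the receptor that carries polymers of IgA and IgM across epithelium, rose with the transgene on both backgrounds. On 99926_at it had 7.40 and 7.17 in BDC2.5/NOD.scid mice, 6.10 and 6.04 in NOD.scid mice, 6.43 and 6.54 in BDC2.5/NOD mice and 5.92 and 6.13 in NOD mice. BDC2.5/NOD.scid was highest and BDC2.5/NOD next, and NOD.scid and NOD overlapped. It was 2.31-fold higher in BDC2.5/NOD.scid than NOD.scid (log2 1.21, SE 0.107, limma adjusted p = 1.56e-05). It was 1.38-fold higher in BDC2.5/NOD than NOD (adjusted p = 0.0207). The second call was lost without either BDC2.5/NOD array or without NOD replicate 1 (adjusted p of 0.101 to 0.188). The difference between the 2 transgene effects was 0.75 (SE 0.151, limma adjusted p = 0.014), and it was lost without either BDC2.5/NOD array or without NOD replicate 2 (0.057 to 0.102). NOD.scid minus NOD was 0.05 (adjusted p = 0.888), so Pigr did not share the low NOD.scid value of Igkv6-23. The other genes of the list were Fc receptors, proteins that bind antibody on cells. Of the 10 probe sets, the only other one to pass was Fcgr1 on 102879_s_at, higher in BDC2.5/NOD.scid than NOD by 0.44 (limma adjusted p = 0.0388), a call lost with any of 5 arrays left out (0.0653 to 0.222).

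**Figure D4:**
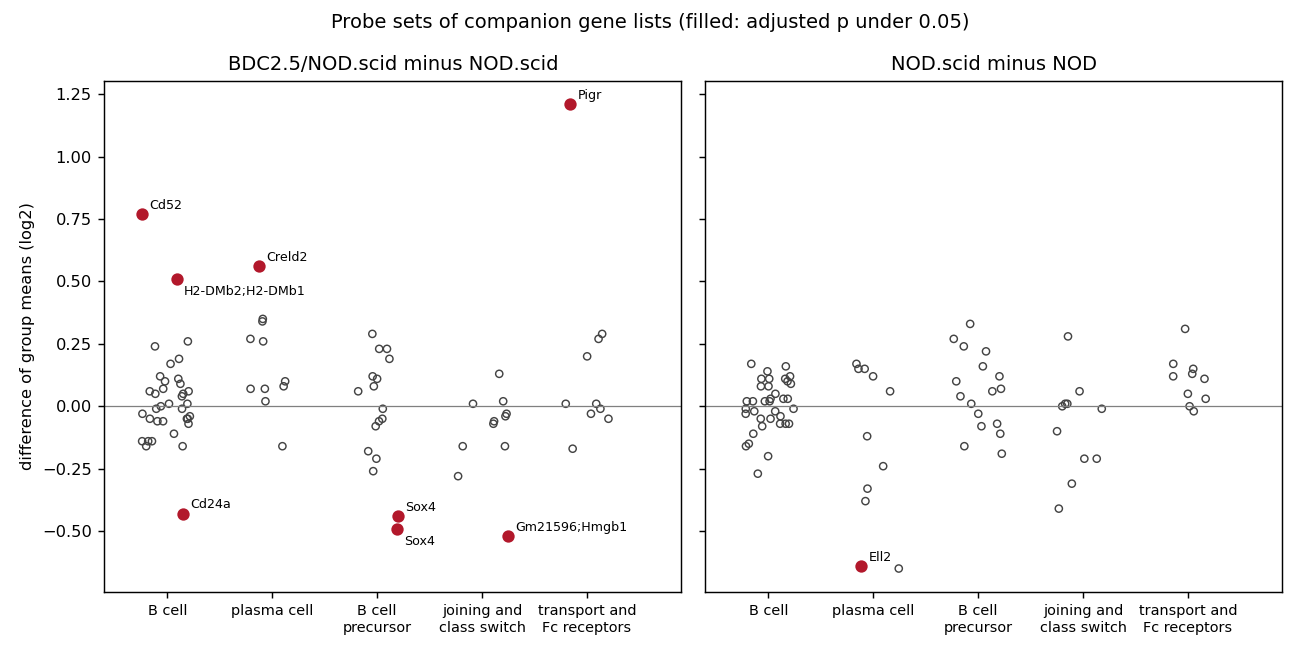
Log2 differences of the probe sets in the B cell, plasma cell, precursor, segment joining and antibody transport lists, 1 point per probe set, for BDC2.5/NOD.scid minus NOD.scid (left) and NOD.scid minus NOD (right). Filled points passed an adjusted p of 0.05, with Pigr at 1.21 and Cd52 at 0.77 among them on the left and Ell2 at -0.64 alone on the right. That Ell2 call was lost with any of 5 arrays left out.

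Markers of other cells moved with some of the comparisons. Macrophage genes, 14 probe sets of 8 genes that include the complement components C1qa, C1qb and C1qc, summed to 74.4 to 76.7 in BDC2.5/NOD.scid mice, 64.4 to 66.0 in NOD.scid mice, 64.3 to 64.4 in BDC2.5/NOD mice and 62.6 to 64.7 in NOD mice. Of these, 8 were higher in BDC2.5/NOD.scid than NOD.scid with limma (57.1%, against 2.37% of all tested probe sets called higher). Neutrophil genes, 6 probe sets, summed to 27.4 to 29.2 in BDC2.5/NOD.scid mice, 35.6 to 35.7 in NOD.scid mice, 26.6 to 27.0 in BDC2.5/NOD mice and 28.4 to 29.1 in NOD mice. Of the 6, 5 were higher in NOD.scid than NOD (83.3%, against 2.35% of all tested in either direction). T cell genes, 19 probe sets of 14 genes, summed to 83.1 to 83.4 in BDC2.5/NOD.scid mice, 80.8 to 81.9 in NOD.scid mice, 82.0 to 82.4 in BDC2.5/NOD mice and 80.9 to 81.7 in NOD mice. None passed with limma in any of the 6 comparisons, in which 2.35% to 8.35% of all tested probe sets were called. In these, 1 to 4 of the 19 had an unadjusted p under 0.05, against 14.2% to 23.6% of all tested. Islet hormone genes, 7 probe sets that include those of insulin, glucagon and somatostatin, summed to 40.8 to 41.8 in BDC2.5/NOD.scid mice, 48.3 to 48.4 in NOD.scid mice, 43.0 in both arrays of BDC2.5/NOD mice and 47.9 to 48.5 in NOD mice. Of these, 6 were lower in BDC2.5/NOD.scid than NOD.scid (85.7%, against 6.40% of all tested in either direction). In BDC2.5/NOD, 5 were lower than in NOD (71.4%, against 7.97%). Lymph node genes, 11 probe sets, summed to 51.5 to 52.0 in BDC2.5/NOD.scid mice, 50.5 to 50.6 in NOD.scid mice, 51.4 to 51.8 in BDC2.5/NOD mice and 50.6 to 51.6 in NOD mice. The one lymph node gene to pass was Glycam1 (9.09% of the list, against 2.35% of all tested). Glycam1, a ligand made by the high endothelial vessels of lymph nodes, was lower in NOD.scid than NOD by 0.44 (log2 -0.44, limma adjusted p = 0.0344). It had 3.37 and 3.48 in NOD.scid and 3.85 and 3.88 in NOD, and the call was lost with any of 6 arrays left out (adjusted p of 0.0786 to 0.167). The part of any of these cells or tissues in the Igkv6-23, Jchain or Ighm values was not tested.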

How the data were processed

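RNA from pancreas was measured on 8 Affymetrix arrays, 2 in each of 4 groups taken from the sample titles. Per the labels' protocols, RNA was extracted with guanidine isothiocyanate, isolated in repeated rounds from 6 animals each and pooled, and targets were made from about 10 ug of total RNA. The deposited table holds values on a log scale. The base was taken as log2 because the authors' values reach only 13.78. How probes were summarised, corrected for background and normalized is not stated in any source used here. No further scaling was applied. The array number limits the precision.

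Group means were fitted with limma 3.58.1 (R 4.3.3) to all 8 arrays (4 residual degrees of freedom, a prior worth 8.07), with a variance trend. Two-sided moderated tests were adjusted by Benjamini-Hochberg over 12422 probe sets, leaving out 66 array controls, with a threshold of 0.05. The interaction is the transgene effect in NOD.scid minus that in NOD. The fit was tested on simulated data. BDC2.5/NOD minus NOD.scid was added after seeing the data. Comparisons share groups, so their values are not independent.

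Symbols came from the platform annotation. Of the members, 65 held 1 symbol and 13 several, and 36 of 37 immunoglobulin symbols matched the GRCm38.p6 table by gene identifier. The rule named every probe set of Igkv6-23, Ighm, Igha and Jchain, those past the threshold, the 6 of highest signal, and those of a constant gene alone. Uncalled ones of low signal are given by range. Some near the threshold, or sharing a symbol with a called one, were named after their values were seen. Members and lists were chosen with earlier results of these data known. Alternatives covered normalization, filters, variance models, thresholds, a block for the title number, a term for the actin control and each array left out. Plots used matplotlib 3.10.9.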

Additional observations from a re-analysis of the deposited data

Results flagged for a closer look

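The effect of the BDC2.5 transgene differed between the scid and the NOD background, by limma's test of the difference itself, for 4 of the 78 immunoglobulin probe sets (5.13%, against 4.72% of all tested probe sets). The difference, the effect in NOD.scid minus that in NOD on the log2 scale, was 2.92 for Igkv6-23 on 102156_f_at (adjusted p = 8.91e-07) and 2.74 for 93086_at, which holds Igkv6-23 and Igkc among others (adjusted p = 3.87e-07). It was 0.67 for Jchain on 102372_at (limma adjusted p = 0.0152) and 0.78 for Ighm on 93583_s_at (adjusted p = 0.0472). With each array left out in turn, the Jchain call was lost in 3 of 8 refits (adjusted p of 0.0502 to 0.09) and the Ighm call in 6 of 8 (0.0751 to 0.207). In all 4 both arrays of BDC2.5/NOD.scid lay above both of NOD.scid, and both of BDC2.5/NOD lay below both of NOD. The 4 were picked by a positive difference between these effects, so the pattern follows in part from the choice. Over all tested probe sets, 20.5% lay above in the first comparison and 22.8% below in the second. For Ighm the first gap was only 5.47 against 5.44. With 2 arrays in a group, single arrays were not tested as outliers.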

How the results depend on the processing

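With limma, the 2 Igkv6-23 probe sets kept their direction and their call in 237 of 238 refits of the 6 planned comparisons. The exception was 102156_f_at in BDC2.5/NOD.scid minus BDC2.5/NOD without BDC2.5/NOD replicate 1. Quantile normalization, centring, a filter on low signals, no variance trend, array weights, the compared groups alone, Igll1 as a member and a term for the actin control kept every count of members within 1.5 times. No called difference reversed its direction. The uncalled difference of Ighm on 93583_s_at in BDC2.5/NOD minus NOD.scid, 0.02, ran from -0.24 to 0.23 over all refits. In the order BDC2.5/NOD.scid minus NOD.scid, BDC2.5/NOD minus NOD, NOD.scid minus NOD, BDC2.5/NOD.scid minus BDC2.5/NOD, BDC2.5/NOD.scid minus NOD, the interaction, and the added BDC2.5/NOD minus NOD.scid, the counts were 2, 4, 2, 4, 2, 4 and 1. Leaving out the 3 arrays with a high actin control gave 6, 11, 5, 8, 4, 10 and 8, from a fit whose spread comes from the BDC2.5/NOD pair alone. With members of 1 symbol only, the first 5 counts were 1, 2, 1, 2 and 1. An adjusted p of 0.01 gave 2, 2 and 2 for BDC2.5/NOD minus NOD, BDC2.5/NOD.scid minus BDC2.5/NOD and the interaction, and 0 for the added comparison. An adjusted p of 0.10 gave 4 for BDC2.5/NOD.scid minus NOD.scid and 3 for the added comparison. With the mean of the BDC2.5/NOD arrays as 1 sample, 2, 2 and 2 passed for BDC2.5/NOD minus NOD, BDC2.5/NOD.scid minus BDC2.5/NOD and the interaction, and 0 for the added comparison. That change, the arrays of high actin control and the added comparison were chosen after seeing the data. With each array left out in turn, the counts ran from 2 to 4, 2 to 5, 2 to 3, 1 to 4, 2 to 3, 2 to 4 and 0 to 2, a lone array being assumed to vary like the other groups. The highest count of the first, 4, came without BDC2.5/NOD.scid replicate 1, and the lowest of the fourth, 1, without BDC2.5/NOD replicate 1. Deviations of same-numbered arrays from their group means correlated at 0.29 for NOD.scid with NOD. They correlated at -0.32 for BDC2.5/NOD.scid with NOD and at -0.19 for BDC2.5/NOD.scid with NOD.scid. The high actin control fell on replicate 1 of NOD.scid and NOD and on replicate 2 of BDC2.5/NOD.scid. Whether same-numbered arrays share more than a number was not tested. A replicate block gave 2, 3, 2, 4, 2, 3 and 1 members, losing the Jchain call in BDC2.5/NOD minus NOD and the Ighm call in the interaction. A floor on linear values was not run, as the values are log2. The cause of these changes was not tested. The shares of all tested probe sets given above belong to the main fit, and none is given for the changed settings. The counts under the changed settings thus do not show whether immunoglobulin calls changed more than calls over the whole array. The data held no signal over background for any array, so the precision at low signals is unknown.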
